A study of Mus musculus with 2 samples.

Results

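The nucleic acid sensors described here are 10 mouse genes whose proteins recognise viral or misplaced RNA or DNA, or pass that signal on: Ddx58, Ifih1, Dhx58, Ddx60, Zbp1, Eif2ak2, Mavs, Tlr3, Tlr7 and Tlr9. They were chosen by name, and all 10 were found among the 32285 genes of the count tables. Their levels were compared between a culture treated with the androgen 5α-dihydrotestosterone (DHT) and a culture given its ethanol carrier (Vehicle). Bone marrow of a wild-type male C57BL/6J mouse, 3 months old, was the source of both cultures. The DHT culture held 1 nM DHT throughout and the Vehicle culture an equal volume of ethanol, and all else was shared. Both were kept for 48 h in medium depleted of hormones with 5 ng/mL M-CSF, a growth factor for macrophages and their precursors. The last 24 h were spent in 100 ng/mL M-CSF with 30 ng/mL RANKL, which drives precursors to become osteoclasts, and 10 ng/mL human TNF, an inflammatory cytokine. Only adherent cells were sequenced, with a single library for each culture. Differences between the cultures therefore have no replicate check, and none was tested. The culture model is limited to cells of a single animal.

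Cells read foreign nucleic acid in separate compartments. In the cytosol, RIG-I (Ddx58) and MDA5 (Ifih1) bind double-stranded RNA and signal through MAVS on mitochondria, LGP2 (Dhx58) tunes them, and DDX60 is a helicase that has been linked to the same route. ZBP1 binds Z-form nucleic acid and can start cell death, PKR (Eif2ak2) binds double-stranded RNA and blocks translation, and the Toll-like receptors TLR3, TLR7 and TLR9 read double-stranded RNA, single-stranded RNA and DNA inside endosomes. Many cytosolic sensors are themselves interferon-stimulated genes, whereas MAVS is usually expressed without induction, and in bone marrow cultures interferon is known to restrain osteoclast formation.

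A motif made of GAAA, any 2 bases and GAAA, the core of the interferon-stimulated response element, was searched on both strands of RefSeq promoter windows (GRCm38.p6), each 250 bases before and 50 after a gene's start. Windows were found for 7 of the 10 sensors, and 4 of those 7 held the motif, against 3.44% of 32851 promoters of the same length. These 5 matches are shown because the genes that carry them are cytosolic sensors whose levels are compared below. Capitals mark the motif, lower case up to 10 flanking bases on each side.
Ddx58, motif 3 to 12 bases after the start, on the opposite strand, chr4:40239804-40239833 (minus): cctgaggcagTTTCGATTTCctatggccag
Ifih1, motif 33 to 42 bases after the start, chr2:62646206-62646233 (minus): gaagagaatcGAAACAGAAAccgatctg
Ddx60, motif starting 53 bases before the start, chr8:61928024-61928053 (plus): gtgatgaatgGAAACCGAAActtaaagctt
Ddx60, motif starting 19 bases before the start, chr8:61928058-61928087 (plus): gagcagaagaGAAACCGAAActatccttca
Eif2ak2, motif 19 to 28 bases after the start, chr17:78882535-78882564 (minus): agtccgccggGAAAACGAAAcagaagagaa
Ddx60 had 2 matches, with the same 10 letters in both. The windows of Mavs, Tlr3 and Tlr9 held no match, which says only that these letters are absent there. No window was matched for Dhx58, Zbp1 and Tlr7. A match is a run of letters and not a measured binding site.

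Unique molecular identifiers (UMIs), each a counted RNA molecule, numbered 319430510 in 10798 barcodes with DHT and 453802415 in 10630 barcodes with Vehicle. Filters left 7708 DHT cells, with a median of 30133 UMIs, and 8590 Vehicle cells, with a median of 50834. The libraries had 33 barcodes in common. Cells were clustered without the sensor genes and the pathway genes below, and clusters were named from marker genes. Osteoclast-like cells were 27.9% of DHT cells, against 51.9% of Vehicle cells, and neutrophil-like cells 23.7% of DHT cells, against 12.4% of Vehicle cells. Levels are in CPM, a gene's UMIs over all cells of a class scaled by the UMIs of every gene in those cells. In such sums fewer cells of a type and less RNA per cell cannot be told apart. All intervals are at 95% and cover counting error only. A gene was measured when its mean over both libraries was at least 2 CPM with at least 20 UMIs in all, and called higher or lower at 1.5-fold.

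Over all filtered cells 7 of the 10 sensors were called higher with DHT and 0 lower, where 8.15% of 10959 measured genes were called higher and 0.474% lower. The cytosolic sensors Ddx60, Zbp1, Ddx58, Dhx58 and Ifih1 were 2.67-fold to 9.5-fold higher. The adaptor gene Mavs did not pass 1.5-fold, and Tlr3 and Tlr9 lay under the minimum level. As 1 library stands for each group, these are differences between 2 libraries.

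Among the RIG-I-like receptors, Ddx58 stood at 40.8 CPM (Poisson interval 40.1 to 41.5) in DHT cells, against 8.46 CPM (8.19 to 8.74) in Vehicle cells. This was a 4.82-fold higher level (counting interval 4.65 to 5.01). Ifih1 had 22.2 CPM in DHT cells and 8.32 CPM in Vehicle cells, 2.67-fold higher (2.56 to 2.78). The ratio of Dhx58, with 17.5 CPM in DHT cells against 5.01 CPM in Vehicle cells, was 3.50 (3.32 to 3.68). All 3 genes of the family were thus higher by more than counting error. An antisense gene, Dhx58os, overlaps Dhx58 and had 85 UMIs in DHT cells and 26 in Vehicle cells, where Dhx58 had 5198 in DHT cells and 2159 in Vehicle cells. Whether reads were counted by strand is not given in the sources used here.

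Helicase gene Ddx60 had 22.2 CPM in DHT cells, against 2.34 CPM in Vehicle cells, and a ratio of 9.5 (8.89 to 10.2). Zbp1 had 23.1 CPM in DHT cells, against 2.43 CPM in Vehicle cells, and a ratio of 9.49 (8.89 to 10.1). The 2 largest ratios of the set were therefore nearly equal over all cells, though their cells differed, as the classes below show. Eif2ak2, the gene of PKR, had the smallest ratio of the cytosolic sensors. It stood at 66.8 CPM in DHT cells and 35.5 CPM in Vehicle cells, 1.88-fold higher (1.84 to 1.92).

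Mavs, the adaptor that both RIG-I and MDA5 need, had 18.4 CPM in DHT cells and 19.6 CPM in Vehicle cells (ratio 0.941, 0.910 to 0.974). Tlr7 stood at 8.76 CPM in DHT cells and 4.5 CPM in Vehicle cells, 1.95-fold higher (1.84 to 2.07). Tlr3 had 1.22 CPM in DHT cells and 0.884 CPM in Vehicle cells, from 363 UMIs in DHT and 381 in Vehicle. Tlr9 rested on few molecules, with 33 UMIs in DHT cells and 25 in Vehicle cells. Of the endosomal receptors, Tlr7 alone passed the minimum level over all cells.

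The mix of cells differed between the libraries and moved with some of these ratios. When each cluster's level was weighted by its mean share of cells in the 2 libraries, Tlr7 had 11.4 CPM with DHT and 8.58 CPM with Vehicle, a ratio of 1.33, which no longer passed 1.5-fold. The ratio of Ddx60 became 5.69 and that of Mavs 1.16, on the other side of 1. Weighted ratios of Ddx58 (3.92), Ifih1 (2.84), Dhx58 (3.48), Zbp1 (8.10) and Eif2ak2 (1.99) all still passed 1.5-fold.

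**Figure D1:**
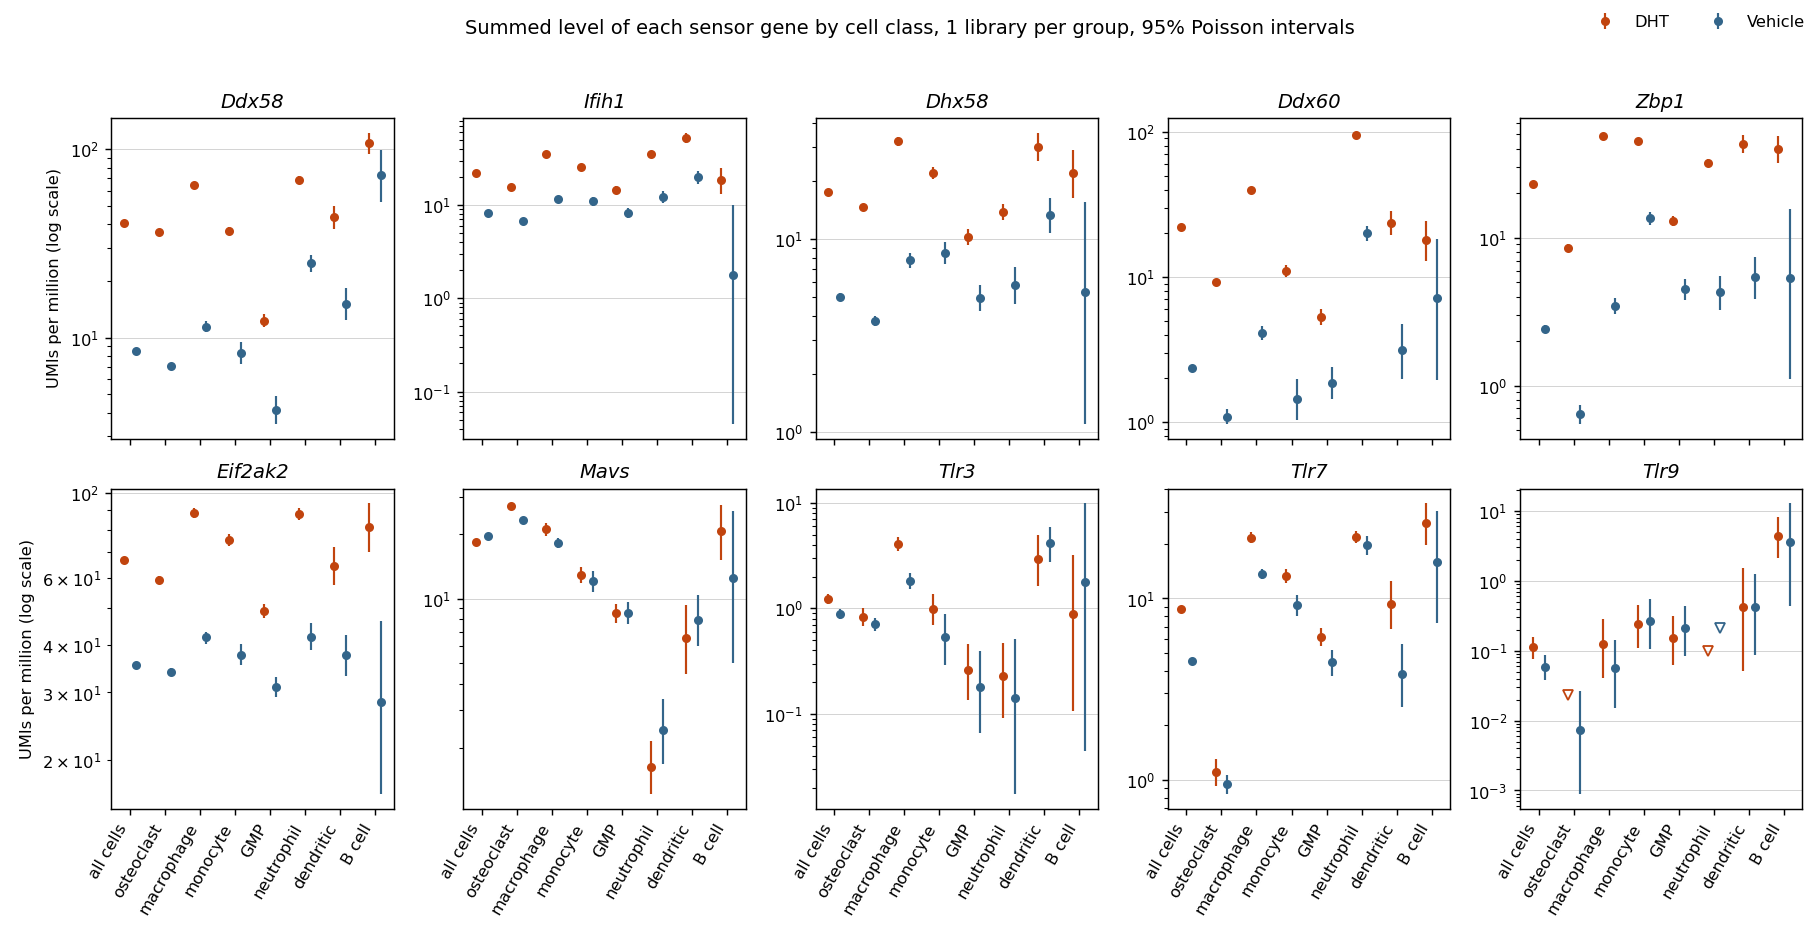
Summed level of each sensor gene in CPM (vertical log axis, a separate scale for each gene) in all filtered cells and in 7 cell classes, DHT left of Vehicle in each pair. Points are single libraries, bars 95% Poisson intervals, open triangles libraries with 0 UMIs drawn at the level of 3 counts, and GMP stands for granulocyte-monocyte progenitor. The DHT points of Ddx58, Ifih1, Dhx58, Ddx60, Zbp1 and Eif2ak2 lie above the Vehicle points in each class, while the DHT points of Mavs lie above in some classes and below in others.

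Osteoclast-like cells held 2154 DHT cells (median 57645 UMIs) and 4456 Vehicle cells (median 59482 UMIs), so depth per cell was close. The 6 cytosolic sensors Ddx58, Ifih1, Dhx58, Ddx60, Zbp1 and Eif2ak2 were called higher and 0 lower, where 1.6% of 10489 measured genes were called higher and 0.2% lower. Both Ddx60 and Zbp1 reached the minimum level through the DHT library, so a ratio well above 1 was needed for them to be measured. The class is made of clusters 1, 2, 12 and 13, each with 10 or 11 of 14 osteoclast markers past the naming fold against the median of other clusters. Measured against all other cells, cluster 13 alone kept the name, and clusters 1, 2 and 12 had 0 markers past the fold. In cluster 13 alone the log2 ratio of Ddx60 was 3.90, where it was 3.08 in the whole class. A 20% mitochondrial limit gave 4.56 for Zbp1, where it was 3.74. Both log2 ratios were lowest without the highest doublet scores, at 2.76 for Ddx60 and 3.31 for Zbp1. In the main clustering the genes that led cluster 2 included the immunoglobulin genes Igkc, Ighg1 and Igha.

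The largest ratio in osteoclast-like cells was that of Zbp1, with 8.56 CPM in DHT cells (8.07 to 9.08) and 0.641 CPM in Vehicle cells (0.549 to 0.743), a ratio of 13.4 (11.4 to 15.8). Ddx60 had 9.18 CPM in DHT cells and 1.09 CPM in Vehicle cells, 8.44-fold higher (7.43 to 9.61). Ddx58 had 36.3 CPM in DHT cells and 7.04 CPM in Vehicle cells, 5.15-fold higher (4.89 to 5.43). Zbp1 and Ddx60 thus lay under the minimum level in Vehicle cells. Dhx58 had 14.6 CPM in DHT cells and 3.75 CPM in Vehicle cells, 3.90-fold higher (3.61 to 4.21). Ifih1 had 15.7 CPM in DHT cells and 6.76 CPM in Vehicle cells, 2.33-fold higher (2.19 to 2.48). Eif2ak2 had 59.3 CPM in DHT cells and 34.0 CPM in Vehicle cells, 1.74-fold higher (1.69 to 1.80).

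Osteoclast-like cells had the highest Mavs level of the 7 classes in both libraries, 27.0 CPM in DHT cells and 23.3 CPM in Vehicle cells, a ratio of 1.16 (1.11 to 1.21). All 3 endosomal receptors lay under the minimum level there. Tlr7 had 1.1 CPM in DHT cells and 0.946 CPM in Vehicle cells, and Tlr3 0.835 CPM in DHT cells and 0.706 CPM in Vehicle cells, and both ratios have intervals that include 1. Tlr9 had 0 UMIs in DHT cells and 2 in Vehicle cells, which allows no ratio.

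Each of the 4 osteoclast-like clusters gave these 6 calls and 0 lower. The share of all measured genes called higher was 2.06% in cluster 1, 2.09% in cluster 2, 1.78% in cluster 12 and 1.94% in cluster 13, and the share called lower 0.334%, 0.676%, 0.593% and 0.595% in that order. Ratios ran over the clusters from 4.53 to 5.87 for Ddx58, from 2.23 to 2.52 for Ifih1 and from 3.43 to 4.82 for Dhx58. Those of Ddx60 ran from 5.6 to 15 and those of Zbp1 from 12.4 to 17.3. Eif2ak2 kept to 1.64 to 1.78, and Mavs to 1.09 to 1.17. The widest span was that of Ddx60, which had 14 UMIs in the Vehicle cells of cluster 13.

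Markers of neutrophils were also higher with DHT among osteoclast-like cells. Summed over the 12 markers, they stood at 1118 CPM in DHT cells and 447 CPM in Vehicle cells, none at 0, and 7 of the 9 measured were called higher. Of monocyte markers 6 of 9 measured were called higher, though their sum was 3384 CPM in DHT and 3653 CPM in Vehicle. Conventional dendritic cell markers had 4 of 6 higher (294 CPM in DHT, 195 CPM in Vehicle). Progenitor markers had 4 of 7 (585 CPM in DHT, 560 CPM in Vehicle) and macrophage markers 2 of 11 (728 and 771 CPM). None of these types had a marker called lower. Free RNA from lysed cells, estimated from 6 markers of other types, was 3.02% of UMIs in osteoclast-like DHT cells and 3.35% in Vehicle cells. That much free RNA would be 3.4% of the Ddx58 level in DHT cells and 4.06% in Vehicle cells. For Ddx60 it would be 7.37% in DHT and 7.45% in Vehicle, and for Zbp1 8.02% in DHT and 12.6% in Vehicle. With free RNA subtracted, 6 sensors were called higher in this class. The part of RNA of neutrophils or of these other types in the sensors' ratios was not tested otherwise.

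Macrophage-like cells, marked by C1qa and Ms4a7, were 1014 in the DHT library and 1317 in the Vehicle library. They had 8 sensors called higher and 0 lower, where 4.21% of 10516 measured genes were called higher and 1.79% lower. Neutrophil markers moved with them, at a summed 1563 CPM in DHT cells and 570 CPM in Vehicle cells, with 8 of 9 measured called higher and none of the 12 at 0, as did 8 of the 12 macrophage markers (3142 CPM in DHT, 2077 CPM in Vehicle). Of 10 measured monocyte markers 7 were also called higher, though their sum was 2955 CPM in DHT cells and 3027 CPM in Vehicle cells. The part of all these markers in the sensors' ratios was not tested. Zbp1 stood at 48.9 CPM in DHT cells and 3.45 CPM in Vehicle cells, a ratio of 14.2 (12.4 to 16.2). Tlr3 was measured in this class and the dendritic one alone, and called here. Tlr3 had 4.09 CPM in DHT cells and 1.83 CPM in Vehicle cells, from 166 and 130 UMIs, a ratio of 2.24 (1.77 to 2.84). Its Vehicle level lay under the minimum level, so Tlr3 was measured here through the DHT library. Tlr7 had 21.6 CPM in DHT cells and 13.6 CPM in Vehicle cells, 1.59-fold higher (1.45 to 1.74). The Tlr7 call was lost under 4 alternatives of doublet removal or clustering, its lowest log2 ratio being 0.44 with all variable genes in the clustering. It was also lost under the 2-fold rule and under the minimum of 20 CPM. Ddx58 (64.5 CPM in DHT cells, 11.5 CPM in Vehicle cells) reached 5.63-fold, its highest ratio over the classes. Mavs, at 21.1 CPM in DHT cells and 18.2 CPM in Vehicle cells, did not pass 1.5-fold.

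Neutrophil-like cells were 1829 in the DHT library (median 12984 UMIs) and 1064 in the Vehicle library (median 9606 UMIs). The 6 cytosolic sensors were called higher and 0 sensors lower, where 2.77% of 10202 measured genes were called higher and 1.68% lower. Ddx60 reached its highest level of the 7 classes in both libraries, 94.7 CPM in DHT cells and 20.1 CPM in Vehicle cells, though its Vehicle interval overlapped that of B cell-like cells. Its ratio there was 4.72 (4.17 to 5.35), smaller than in osteoclast-like and macrophage-like cells. Mavs was at its lowest here, with 1.64 CPM in DHT cells and 2.43 CPM in Vehicle cells, from 50 and 34 UMIs (ratio 0.676, 0.428 to 1.08). Tlr7 had 21.9 CPM in DHT cells and 19.7 CPM in Vehicle cells (ratio 1.11, 0.965 to 1.28). In neither of these genes did the ratio's interval exclude 1.

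In monocyte-like cells (579 in DHT, 483 in Vehicle) 6 sensors were called higher and 0 lower, where 2.54% of measured genes were called higher and 1.01% lower. Zbp1 had 45.1 CPM in DHT cells and 13.5 CPM in Vehicle cells, its highest Vehicle level of the 7 classes, and a ratio of 3.34 (2.98 to 3.75). Ddx58 was 4.45-fold and Ddx60 7.59-fold higher in DHT monocyte-like cells. Ddx60 stood at 1.45 CPM in Vehicle cells, under the minimum level, so it was measured through the DHT library. Free RNA was estimated highest here, at a median of 26.8% of UMIs in DHT and 27.3% in Vehicle, but the 6 markers ran from 2.83% to 86.3% in DHT and from 3.30% to 60.4% in Vehicle. At the median it would be 54.6% of the Ddx60 level in DHT and 45.7% in Vehicle, and 29.6% of the Ddx58 level in DHT and 28.1% in Vehicle. With this median subtracted 6 sensors were called higher. No count over all genes was made for this class with free RNA subtracted, so nothing is read from it. Neutrophil markers summed to 2595 CPM in DHT cells and 1636 CPM in Vehicle cells, with 6 of 9 measured called higher, and their part was not tested.

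Granulocyte-monocyte progenitor-like cells (622 in DHT, 510 in Vehicle) also had 6 sensors called higher and 0 lower, where 2.85% were called higher and 0.821% lower. Their ratios were the lowest of the 7 classes for 4 of those sensors. Zbp1 had 13 CPM in DHT cells and 4.48 CPM in Vehicle cells (2.89-fold). Dhx58 was 2.07-fold, Ifih1 1.78-fold and Eif2ak2 1.58-fold higher. Ddx60 stood at 1.86 CPM in Vehicle cells, under the minimum level, so it was measured through the DHT library. Free RNA was estimated at a median of 6.43% of UMIs in DHT and 4.72% in Vehicle. At that median it would be 21.3% of the Ddx58 level in DHT and 9.72% in Vehicle. For Ddx60 it would be 27.2% in DHT and 6.15% in Vehicle. With naming against all other cells, which keeps 1 of the 2 progenitor clusters, the Eif2ak2 call was lost (log2 ratio 0.24). Ifih1 then stood at a log2 ratio of 0.60, Ddx58 at 0.67 and Ddx60 at 0.66. Neutrophil markers summed to 23706 CPM in DHT cells and 14620 CPM in Vehicle cells, with 6 of 11 measured called higher, and their part was not tested. Mavs was level at 8.54 CPM in DHT cells and 8.56 CPM in Vehicle cells (ratio 0.997, 0.854 to 1.17). Differences in ratio between classes were not tested.

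The conventional dendritic cell-like class was small, with 142 DHT cells and 193 Vehicle cells. In it 7 sensors were called higher and 0 lower, where 11.9% were called higher and 7.12% lower. Tlr7 had its largest ratio there, 9.30 CPM in DHT cells and 3.84 CPM in Vehicle cells (2.42-fold, 1.47 to 4.07), from 44 and 27 UMIs. Markers of plasmacytoid dendritic cells, a type known for TLR7, were higher with it. They summed to 1041 CPM in DHT cells and 559 CPM in Vehicle cells, with 5 of 8 measured called higher and 1 of 10 at 0 in DHT. These markers include Bst2, which is also among the interferon-stimulated reference genes below. Their sum was higher with DHT in osteoclast-like cells too (379 CPM in DHT, 242 CPM in Vehicle). In macrophage-like cells it was 762 CPM in DHT and 369 CPM in Vehicle. In each of these 2 classes 1 of 4 measured was called higher and 0 lower. The part of these markers was not tested. Tlr3 had 2.96 CPM in DHT cells and 4.13 CPM in Vehicle cells, from 14 and 29 UMIs (ratio 0.717, 0.35 to 1.40). Ifih1 was at its highest of the 7 classes in both libraries, 52.2 CPM in DHT cells and 19.8 CPM in Vehicle cells. Free RNA was estimated at a median of 6.14% of UMIs in DHT and 18.5% in Vehicle dendritic cell-like cells. At that median it would be 5.75% of the Tlr7 level in DHT and 21.8% in Vehicle.

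B cell-like cells, 340 in DHT and 117 in Vehicle, held 563220 UMIs in the Vehicle library, which gave most sensors under 10 UMIs there. By the same rule 7 were called higher and 0 lower, where 14.9% were called higher and 8.74% lower. With the deeper library thinned 3 were called, but no count over all genes was made beside it. Neutrophil markers went the other way, at a summed 1182 CPM in DHT cells and 13032 CPM in Vehicle cells, with 9 of 9 measured called lower, and their part in the sensors' ratios was not tested. For Mavs, Tlr7 and Ddx60 the ratio's interval included 1. Ddx58 was at its highest here, 108 CPM in DHT cells and 72.8 CPM in Vehicle cells, and its ratio of 1.48 (1.06 to 2.11) did not pass 1.5-fold. Ifih1 had 42 UMIs in DHT cells and 1 in Vehicle cells, a ratio of 10.4 whose interval ran from 1.77 to 420. Its Vehicle level, 1.78 CPM, lay under the minimum level, so Ifih1 was measured here through the DHT library. Tlr9, a receptor that B cells are known to use, had its highest level in this class, 4.39 CPM in DHT cells and 3.55 CPM in Vehicle cells, from 10 and 2 UMIs.

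**Figure D2:**
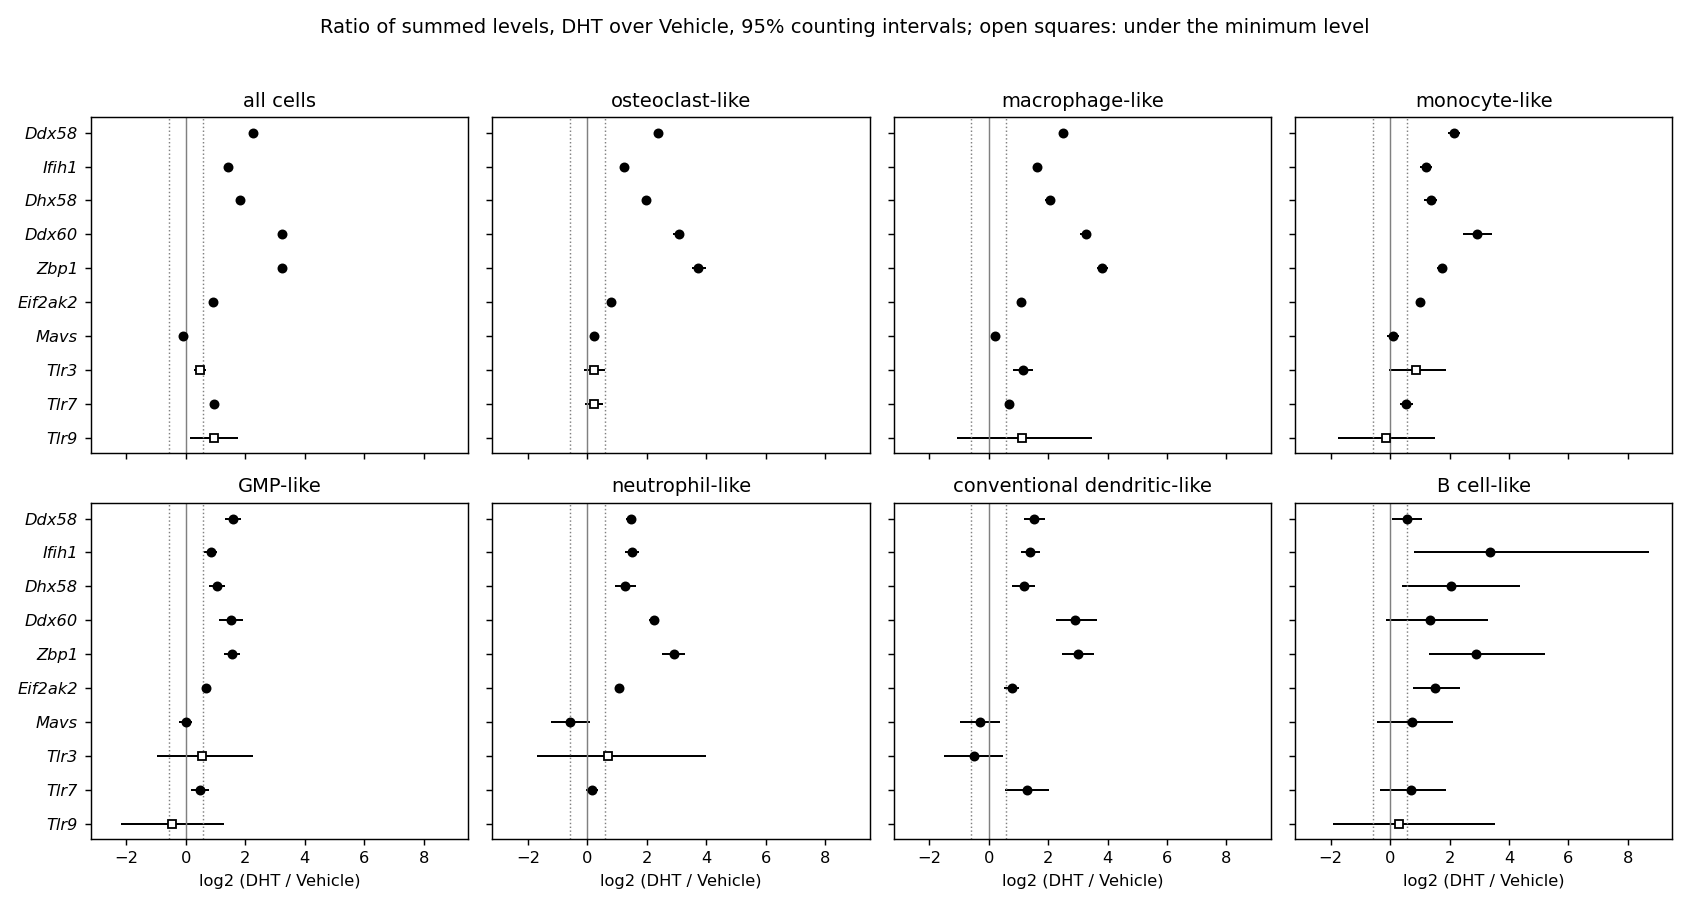
Ratio of summed levels, DHT over Vehicle, on a log2 scale (horizontal axis) for the 10 sensors (rows) in all filtered cells and 7 classes (panels). Bars are 95% counting intervals, dotted lines mark 1.5-fold either way, open squares are genes under the minimum level, and ratios with 3 or fewer UMIs in both libraries are left out. The 6 cytosolic sensors lie right of the upper dotted line in each panel, except Ddx58 in B cell-like cells, and the Mavs intervals cross 0 in the monocyte-like, progenitor-like, neutrophil-like, dendritic cell-like and B cell-like panels.

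Across the 7 classes, then, Ifih1, Dhx58, Ddx60, Zbp1 and Eif2ak2 were called higher in all 7 and Ddx58 in 6. The Eif2ak2 call in progenitor-like cells was lost with naming against all other cells. In B cell-like cells, where 14.9% of measured genes were called higher, some of these calls rested on few Vehicle UMIs. There were 1 for Ifih1, 3 each for Dhx58 and Zbp1, and 4 for Ddx60. With the deeper library thinned 3 sensors were called in that class, without a count over all genes beside it. Tlr7 was called in 3, and Mavs and Tlr3 in 1 each. The order of the classes differed from gene to gene. In DHT cells Zbp1 was highest in macrophage-like cells, with intervals that overlapped from each class to the next down to neutrophil-like cells. It was lowest in osteoclast-like cells. Mavs had the reverse end of the order, highest in osteoclast-like cells, followed without overlap by macrophage-like cells. Tlr7 in DHT cells was highest in B cell-like, neutrophil-like and macrophage-like cells, whose intervals overlapped from one to the next, and lowest in osteoclast-like cells. For Eif2ak2 the classes lay closest together, the highest being 1.80 times the lowest in DHT cells and 1.48 times in Vehicle cells.

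The unnamed cluster of barcodes with few UMIs (1003 in DHT, 438 in Vehicle, medians 1481 and 1707 UMIs) is part of all filtered cells. It had Ddx58 at 42.3 CPM in DHT and 6.14 CPM in Vehicle barcodes, and 7 sensors called higher, the 6 cytosolic ones and Tlr7, and 0 lower. Neutrophil markers summed to 4753 CPM in DHT and 1285 CPM in Vehicle barcodes there, and their part was not tested. In that cluster 12.7% of measured genes were called higher and 7.49% lower.

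The share of cells with a UMI depends on depth, so each cell was thinned to 4719 UMIs, and 1060 DHT and 570 Vehicle cells below that were left out. Among osteoclast-like cells, a Ddx58 UMI was found in 14.6% of 2133 in DHT (exact binomial interval 13.1 to 16.2), against 3.18% of 4434 in Vehicle (2.68 to 3.74). Shallower cells left out of this class were 21 in DHT and 22 in Vehicle. Without thinning the shares were 64.3% in DHT cells and 27.0% in Vehicle cells. Free RNA alone would give 0.580% of DHT cells, against 0.135% of Vehicle cells at this depth. Zbp1 was found in 4.22% of DHT cells (3.41 to 5.16), against 0.180% of Vehicle cells (0.0779 to 0.355), where free RNA would give 0.323% in DHT and 0.0380% in Vehicle. Its unthinned shares were 20.6% in DHT cells and 2.96% in Vehicle cells. Both shares of Zbp1 lay above what free RNA would give. Eif2ak2 was found in 24.7% of DHT cells, against 14.6% of Vehicle cells (unthinned 86.9% in DHT, 78.3% in Vehicle). Mavs was found in 13.2% of DHT cells (11.8 to 14.7), against 10.4% of Vehicle cells (9.56 to 11.4), and without thinning in 71.6% of DHT cells, against 70.8% of Vehicle cells. S100a8, a neutrophil gene that osteoclasts should lack, was found in 69.3% of these DHT cells and 39.1% of Vehicle cells.

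Counted over members, 7 of 10 had a higher thinned share with DHT in osteoclast-like cells, with intervals apart, and 0 a lower one. By the same rule 7.36% of 10489 measured genes were higher and 4.63% lower. The 7 were the 6 cytosolic sensors and Mavs, and Mavs was not among them in another random thinning, chosen after the data were seen. Macrophage-like cells also gave 7 higher, with Tlr3 in place of Mavs, and 0 lower, where 7.03% of 10516 measured genes were higher and 8.3% lower. The other thinning gave 7 there with Tlr7 in place of Tlr3, so the calls of Mavs, Tlr3 and Tlr7 by share depend on the draw. Tlr3 was found in 2.55% of macrophage-like DHT cells (1.66 to 3.75), against 0.612% of Vehicle cells (0.265 to 1.2), where free RNA would give 0.0214% in DHT and 0.0144% in Vehicle. Its unthinned shares were 12.7% in DHT and 8.43% in Vehicle. Tlr7 was found in 9.6% of macrophage-like DHT cells, against 6.81% of Vehicle cells, with intervals that overlapped, and without thinning in 45.7% in DHT and 41.1% in Vehicle. This class left out 35 DHT and 10 Vehicle cells.

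In neutrophil-like cells Ddx60 was found in 27.3% of 1729 DHT cells (25.2 to 29.5), against 8.77% of 901 Vehicle cells (7.0 to 10.8). Without thinning the shares were 45.1% in DHT and 17.3% in Vehicle, and 100 DHT and 163 Vehicle cells were too shallow to be thinned. The thinned cells with Ddx60 held 2.23 of its UMIs each in DHT and 1.28 in Vehicle, so both the share and the level per cell with a UMI were higher. Mavs was found in 0.868% of DHT cells, against 0.888% of Vehicle cells, where free RNA alone would give 0.433% in DHT and 0.424% in Vehicle. Tlr7 was found in 11.9% of DHT cells, against 11.3% of Vehicle cells, and Tlr9 in 0 of 1729 DHT cells, against 0 of 901 Vehicle cells. Taken as 3 cells of the total, these zeros allow shares of cells with a UMI of up to 0.174% in DHT and 0.333% in Vehicle. Tlr3 was found in 1 DHT cell and 0 Vehicle cells, and nothing is read from it.

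**Figure D3:**
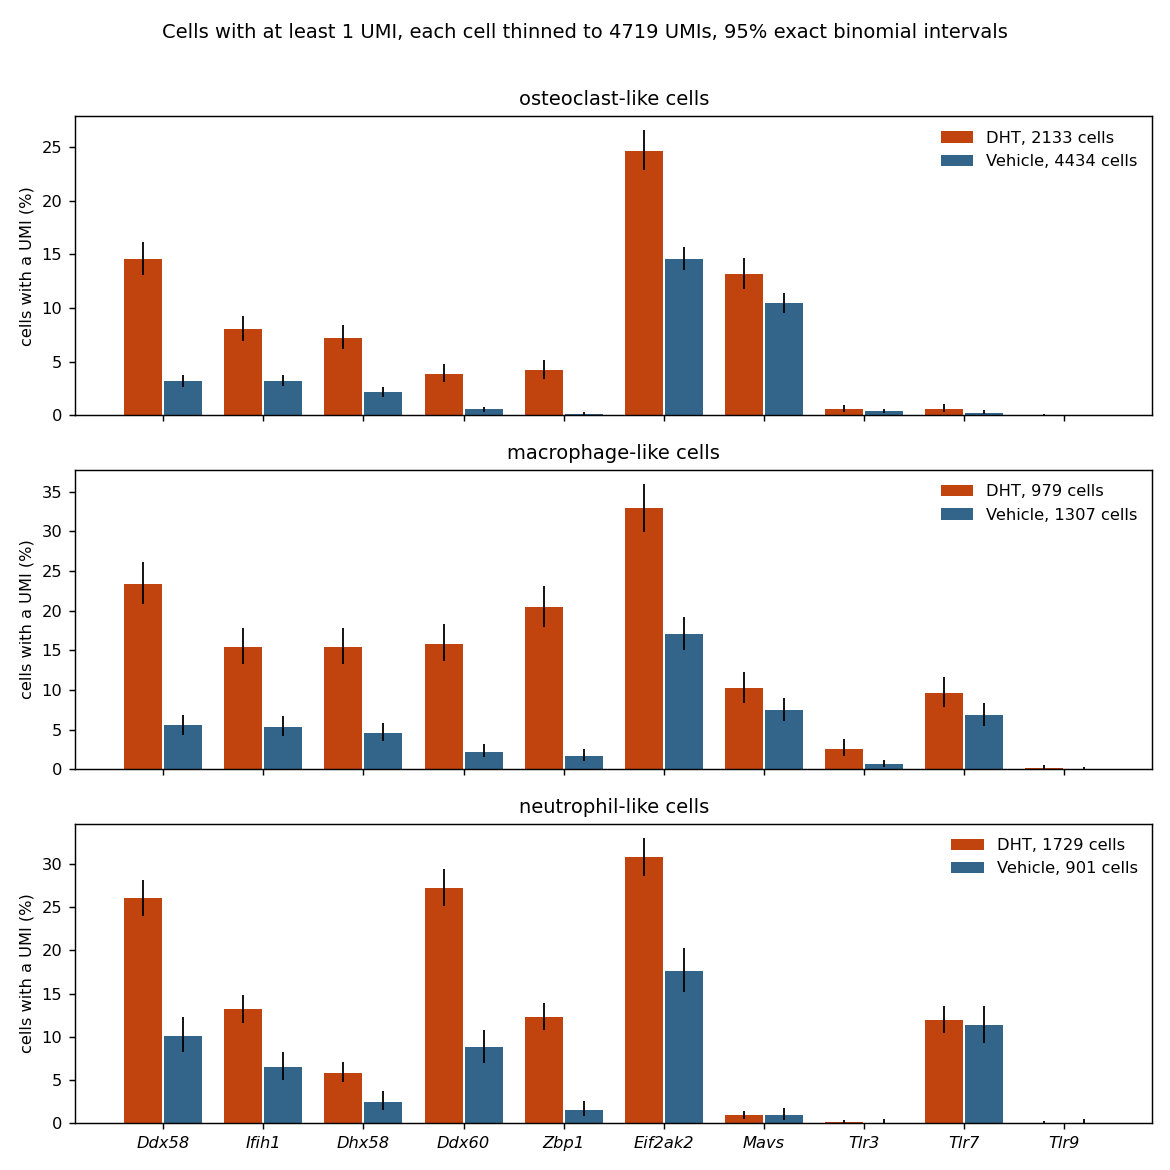
Share of cells with at least 1 UMI of each sensor (vertical axis, percent) in osteoclast-like, macrophage-like and neutrophil-like cells after thinning every cell to 4719 UMIs, DHT left of Vehicle. Bars are shares in single libraries with 95% exact binomial intervals. Ddx58 in osteoclast-like cells stands at 14.6% in DHT and 3.18% in Vehicle, while Tlr7 in neutrophil-like cells stands at 11.9% in DHT and 11.3% in Vehicle.

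Detection of several sensors in the same cell was counted as well. At 4719 UMIs, 3 or more of the 10 sensors were detected in 5.91% of DHT cells (4.94 to 6.99), against 0.429% of Vehicle cells (0.258 to 0.668) of the osteoclast-like class. In macrophage-like cells the shares were 17.6% of DHT cells, against 2.22% of Vehicle cells, and in neutrophil-like cells 17.4% of DHT cells, against 2.66% of Vehicle cells. None of the 10 was detected in 48.1% with DHT and 69.7% with Vehicle among osteoclast-like cells. In progenitor-like cells 3 or more sensors were detected in 2.96% of DHT cells, against 0.197% of Vehicle cells.

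The other genes of each sensor's pathway were followed as 10 lists in osteoclast-like cells, where the median log2 ratio of all measured genes was 0.04. The measured sensors themselves had a median log2 ratio of 1.96. That median includes Zbp1 and Ddx60, which were measured through the DHT library. It leaves out Tlr3 and Tlr7, under the minimum level, whose log2 ratios were 0.24 and 0.22. The minimum level therefore raised it. Of 21 measured partners and regulators of RIG-I-like receptors, 1 was called higher and 0 lower, and the list's median log2 ratio was 0.14. That gene was Lgals3bp, a secreted glycoprotein, with 145 CPM in DHT cells and 72.0 CPM in Vehicle cells (2.01-fold), and the lowest ratio was that of the adaptor gene Tradd (0.942). Of 14 kinases and IRF factors below the sensors 1 was higher and 0 lower (median 0.13). Irf7, the factor that amplifies interferon output, stood at 30.9 CPM in DHT cells and 2.99 CPM in Vehicle cells, a ratio of 10.3. The lowest was the kinase gene Ikbke, at 0.973. Named after their values were seen, the kinase gene Tbk1 had a ratio of 1.04 and Irf3 of 1.01. Of the relay genes below the sensors, then, Irf7 alone passed 1.5-fold.

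Proteins that bind double-stranded RNA beside the sensors were called in part: 7 of 15 measured were called higher and 0 lower, with a median log2 ratio of 0.15. The 2′-5′ oligoadenylate synthetases make a messenger of the antiviral response when they bind double-stranded RNA. Oasl2 had 19.2 CPM in DHT cells and 1.09 CPM in Vehicle cells, a ratio of 17.6, and was measured through the DHT library. Oas3 was 5.75-fold, Oasl1 5.37-fold, Oas1g 5.33-fold, Oas2 4.86-fold and Oas1a 3.26-fold higher. The Oas genes are near-identical copies in part, so reads could be split among them. Adar, which edits double-stranded RNA, was 1.68-fold higher, while Prkra, an activator of PKR, was lowest at 0.951. Adar was named after its values were seen.

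Of the DNA sensing genes none passed 1.5-fold in osteoclast-like cells: 0 of 18 measured genes were called higher and 0 lower, with a median log2 ratio of 0.03. The highest was the nuclease gene Samhd1 (1.33-fold) and the lowest the RNase H2 subunit gene Rnaseh2c (0.781). Cgas (39.7 CPM in DHT cells, 34.2 CPM in Vehicle cells), Aim2 (34.0 and 37.4 CPM in DHT and Vehicle cells) and Tmem173, which encodes STING (3.37 and 3.53 CPM in DHT and Vehicle cells), were named after their values were seen. Over all cells the ligase gene Trim56 (1.52-fold) and Xrcc5, a DNA end-binding subunit (1.60-fold), were called higher.

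Among genes that traffic endosomal Toll-like receptors or carry their signal, 0 of 19 were called in either direction (median 0.11), from Pld4 (0.79) to Slc15a3 (1.46). Over all cells Irak3, Slc15a3 and Sort1 were called higher, at 2.09-fold, 2.05-fold and 1.89-fold. Of 7 measured surface Toll-like receptor genes 0 were called (median 0.09), from Ly96 (0.867) to Cd14 (1.35). Tlr1, Ly86 and Cd14 were called higher over all cells. Calls over all cells include the difference in cell mix: with an equal mix 262 genes in all were called higher, where 893 were without it.

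The genes that carry out cell death below ZBP1 were not called either: 0 of 12, median 0.01. They ran from Gsdme, a pore-forming gasdermin (0.726), to Mlkl, the effector of necroptosis (17.0 CPM in DHT cells, 12.2 CPM in Vehicle cells, 1.39-fold). Nlrp3 was called higher over all cells, at 1.86-fold. Of 16 measured genes of the other eIF2α kinases and the pathway PKR acts on, 0 were called (median 0.06), from Eif2b2 (0.919) to Sesn2 (1.43). Ddit3 passed 1.5-fold over all cells, at 1.51. In osteoclast-like cells the ratios of Zbp1 and Eif2ak2 were larger than those of the measured genes listed with them. Zbp1 was measured there through the DHT library, which needed a ratio well above 1, so nothing is read from its place above them.

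Interferon ligands, receptors and the ISGF3 factors gave 4 of 10 measured genes called higher and 0 lower (median 0.09). Usp18, a brake on the interferon receptor, had 7.49 CPM in DHT cells and 0.404 CPM in Vehicle cells, a ratio of 18.5. It was measured through the DHT library. Irf9 was 2.52-fold and Stat2 1.96-fold higher, and Ifnar2 was lowest at 0.95. Over all cells the receptor gene Ifnlr1 was 3.22-fold higher, and Ifnb1 had 9 UMIs in DHT cells and 1 in Vehicle cells. Of 33 measured interferon-stimulated reference genes 32 were called higher and 0 lower, with a median log2 ratio of 1.53. Ifit1 (15.2-fold), Slfn4 (14.5-fold), Isg15 (13.2-fold), Rtp4 (11.2-fold), Cmpk2 (9.22-fold) and Rsad2 (7.06-fold) led them, and Psmb9 (1.38-fold) did not pass.

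**Figure D4:**
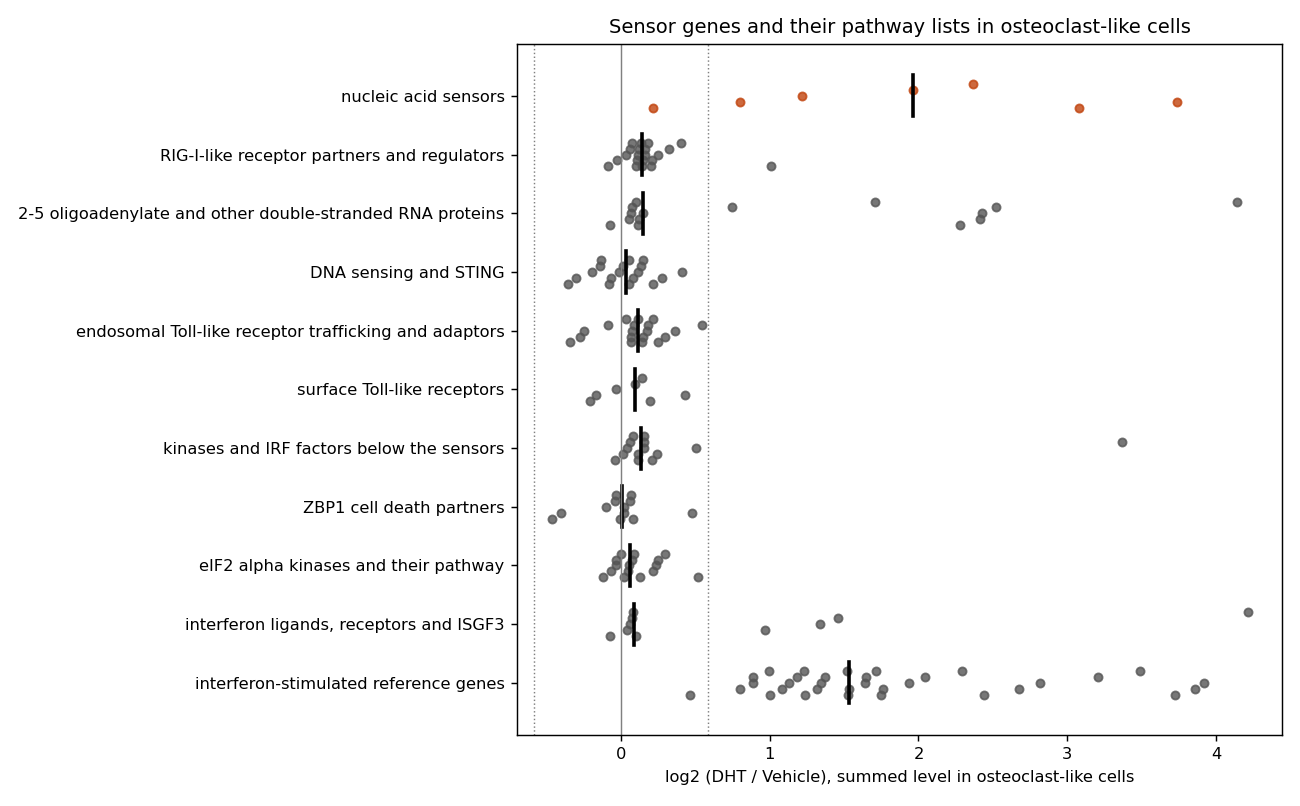
Log2 ratio of the summed level, DHT over Vehicle, in osteoclast-like cells (horizontal axis) for the measured sensors, in orange, and the measured genes of 10 pathway lists (rows), each point a gene and each black bar the list's median. Dotted lines mark 1.5-fold either way, and the heights of points within a row carry no value. Sensors have a median of 1.96 and interferon-stimulated reference genes of 1.53, while partner and relay lists have medians from 0.01 to 0.15. The sensor median includes Ddx60 and Zbp1, measured through the DHT library, and leaves out Tlr3, Tlr7 and Tlr9, under the minimum level.

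The genes whose level over 7 classes in 2 libraries (14 points, log2 of CPM + 1) was most like each sensor's were found among 10957 genes. The points share libraries and depth, so these coefficients are descriptions. For Ddx58 they were Irgm2 (Pearson r = 0.974), Helz2 (0.968) and Irf9 (0.966). Irf7 (0.948), Xaf1 (0.929) and Usp18 (0.924) were nearest to Dhx58. For Ifih1 they were Nod2 (0.878), Isg15 (0.876) and Usp35 (0.864), and for Ddx60 Parp10 (0.911), Cmpk2 (0.888) and Slfn4 (0.874). Nearest to Zbp1 were Usp18 (0.915), the sensor gene Dhx58 (0.895) and Oasl2 (0.879), and to Eif2ak2 Rtp4 (0.916), Oasl2 (0.915) and Ifit1 (0.905).

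Mavs lay nearest to Vps45, Abcf3 and Glb1, the last with r = 0.973, none of them in the lists. Tlr7 lay nearest to Bst1 (0.936), Ccl4 (0.935) and Rap1gds1 (0.921), and Tlr3 to Plk2 (0.967), Ptk2 (0.913) and Rasgef1b (0.910). For Tlr9, with few UMIs in any class, the nearest genes were Zfp329, Synrg and Cpm, and nothing is read from them. Between sensors, r was 0.835 for Ifih1 with Dhx58 and 0.856 for Dhx58 with Eif2ak2, but -0.43 for Ddx60 with Mavs.

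All 10 genes are protein-coding and lie on GRCm38 chromosomes 2 (Ifih1, Mavs, Zbp1), 4 (Ddx58), 8 (Ddx60, Tlr3), 9 (Tlr9), 11 (Dhx58), 17 (Eif2ak2) and X (Tlr7), in GENCODE M21. Ddx58 runs from 40203773 to 40239828 on the minus strand of chromosome 4, and Zbp1 from 173206612 to 173218923 on the minus strand of chromosome 2. Tlr3 is overlapped by the antisense gene Gm45542, which had 2 UMIs in DHT cells and 4 in Vehicle cells. No pair of sensors overlaps.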

How the data were processed

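Adherent marrow cells of 1 mouse gave a single-cell library for DHT and another for Vehicle. The authors deposited raw UMI counts per gene and barcode, made with Cell Ranger 7.0.1 per the file headers. GRCh38 and mm10 appear in the submitters' processing notes, their roles unstated. Neither cell calling nor intronic or strand settings were stated there.

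Kept barcodes had 300 genes or more, 800 UMIs or more and no more than 10% mitochondrial UMIs, and doublets called by Scrublet at an expected rate of 0.08 were removed (203 in DHT, 156 in Vehicle). Clustering used scanpy 1.11.5 and igraph 0.11.9: 2000 variable genes without the sensors and the pathway lists, 30 components, 15 neighbours and Leiden resolution 0.6, giving 15 clusters. A cluster was named when at least 3 and at least 50% of a type's markers were 2-fold higher than in the median of other clusters, after adding 10 CPM, and at least 1 stood among its 10 leading genes. A cluster median below 2000 UMIs left it unnamed. Of 16 cell types with markers, 7 classes had 100 cells or more in each library and were compared. As the names were rebuilt here, they may differ from the study's own.

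Counts were summed per library and class and scaled to CPM with numpy 2.4.6, scipy 1.17.1 and pandas 2.3.3. Intervals at 95% are exact Poisson for CPM, Clopper-Pearson for shares and conditional binomial for ratios, and cover counting error alone. The floor is 3 counts. No ratio is given where both libraries have 3 counts or fewer, and no p-value was made, since cells are not replicates. Shares were taken after thinning each cell to the 10th percentile of UMIs, 4719. Free RNA was estimated from 6 markers of other types. The steps were tested on simulated counts.

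The sensors, the pathway lists, the markers and the naming rule were chosen with earlier results of these data known. Of each list the text names members that passed 1.5-fold in osteoclast-like or all cells, up to 6 by size, and the highest and lowest measured member, and for each sensor the 3 genes with the highest correlation. Other names are said to be chosen after their values were seen. Not found under their listed names were Oas1b, Mb21d1 and Sting1. Some list members are not reported here. Of the gene identifiers 32235 matched GENCODE M21.

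Alternatives were TMM (edgeR 4.0.16, R 4.3.3), median-of-ratios scaling, averaging CPM over single cells, thinning the deeper library, other cell, doublet and level filters, a 2-fold rule, an equal cell mix, free RNA subtraction, and other clusterings and naming.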

Additional observations from a re-analysis of the deposited data

How the results depend on the processing

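Each group is 1 library of cells from 1 mouse, so what would vary between mice, cultures or libraries was not measured. No paired analysis was possible because each group has a single replicate. No scaling moved the median log2 ratio of all genes by over 0.1. Of the recomputed counts of sensors 267 were within 1.5 times the main count and 11 were not, and no called ratio reversed. The 267 include counts of sensors called lower, which were 0 in each class in the main count. Many of them are therefore 0 against 0. With TMM 95 genes were lower in all cells and 33 in osteoclast-like cells, and 1 DNA sensing and 0 eIF2α pathway genes were higher in all cells. With the median of ratios 1 sensor (Mavs) was lower in neutrophil-like cells. With the mean of each cell's CPM 171 genes were lower in all cells, and 4 DNA sensing genes higher. That setting gave 1 endosomal gene and 2 kinase and IRF genes higher in osteoclast-like cells, and 1 sensor (Tlr3) lower in dendritic cell-like cells. With the deeper library thinned 3 sensors were higher in B cell-like cells and 0 eIF2α pathway genes in all cells. No count over all genes was made for B cell-like cells under that setting. Under a minimum of 20 CPM, which tests fewer genes, sensors called higher were 2 in all, 2 in osteoclast-like, 5 in macrophage-like, 3 in monocyte-like, 1 in progenitor-like and 3 in B cell-like cells. It gave 288 genes higher and 7 lower in all cells, and 53 and 3 in osteoclast-like cells. For the other classes no count over all genes was made under this minimum, so nothing is read from their counts of sensors. With no minimum level 3486 genes were higher and 532 lower in all cells, and 1031 and 685 in osteoclast-like cells. At 2-fold these were 495 and 2 in all cells, and 101 and 0 in osteoclast-like cells. The 2-fold rule took the Eif2ak2 call away in all cells (log2 ratio 0.91) and in osteoclast-like cells (0.80). It did so too in monocyte-like (0.999), progenitor-like (0.66) and dendritic cell-like cells (0.77). Tlr7 lost its call under it in all, macrophage-like and B cell-like cells, Ifih1 in progenitor-like cells and Mavs in B cell-like cells. With an equal cell mix 262 genes were higher and 22 lower, and 6 sensors higher, without Tlr7. Subtracting free RNA, or a 20% mitochondrial limit, gave 1 sensor (Tlr3) lower in dendritic cell-like cells. Genes lower in osteoclast-like cells, 21 in the main count, were 43 at 20% mitochondrial UMIs, 34 with stricter minimums or without the highest doublet scores, 44 with all variable genes and 62 with naming against all cells. Without thinning 1 sensor (Mavs) had a lower share in all cells and 1 in macrophage-like cells, and 4 a higher one in B cell-like cells. With doublets kept, 0 sensors had a higher thinned share in B cell-like cells, against 1 in the main count. The same count over all genes was not made without thinning or for B cell-like cells, so nothing is read from these counts. Otherwise the cause was not tested. Apart from the 2-fold rule and the 20 CPM minimum, Tlr7 in macrophage-like cells lost its call with doublets kept and without the highest doublet scores. It also did so at resolution 0.3 and with all variable genes (lowest log2 ratio 0.44). Mavs in B cell-like cells lost its call with doublets kept, among other settings (lowest log2 ratio 0.34). Eif2ak2 in progenitor-like cells lost its call with naming against all cells. Chosen after the data were seen, leaving out the immunoglobulin-led cluster or shared barcodes gave the same counts of sensors in the classes computed. Free RNA subtraction was not run for all cells, and 3 classes have no value under 1 setting each: progenitor-like at resolution 0.3, where no cluster took that name, and, with under 100 cells in a library, dendritic cell-like without the highest doublet scores and B cell-like at 5% mitochondrial UMIs. Depth limits Tlr9, and B cell-like and dendritic cell-like cells.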
